A study of Mus musculus with 8 samples.

Results

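The Ebf1 locus of mouse chromosome 11 was examined in 8 in situ Hi-C libraries of activated B cells. Ebf1 was taken by its symbol, as 1 of 21951 protein-coding genes placed in the bins of the contact matrices. The locus is the gene body, chr11:44617317-45008091 on the plus strand (GRCm38), with 2 Mb on each side, or 89 bins of about 50 kb out of 53227 on the named chromosomes. The gene is 390.775 kb long and fills 9 bins. Its start lies in chr11:44599994-44649762, called the start bin here, and 40 bins on each side form the upstream and the downstream flank.

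In in situ Hi-C, crosslinked chromatin is cut (here with MboI, which cuts at GATC), nearby ends are ligated inside the nucleus, and each sequenced read pair counts as 1 contact between a pair of bins. The cells were splenic B cells of male mice, 6 to 12 weeks old, on a C57BL/6 Pep3b background. They were isolated as naive cells by negative selection, labelled with the division tracker CTV and cultured with LPS, a bacterial lipopolysaccharide that drives B cells into division, at 25 μg/ml. There were 4 groups with 2 libraries each: 3 h, 10 h, 33 h before the first division (imminent division) and 33 h before S phase (pre-S). The cells at 3 h, 10 h and imminent division came from C57BL/6 mice. The pre-S cells came from C57BL/6 FUCCI mice, which carry fluorescent cell cycle reporters, and were sorted on those reporters. Reporter transgene and gate therefore cannot be told apart from the pre-S group. Totals lay between 88703088 and 218945191 read pairs per library, and 70.9% to 75.1% of autosomal pairs were in cis. The second imminent division library stood apart on the sex chromosomes, with 3.74% of read ends on X against 2.39% to 2.84% in the other libraries and 0.0490% on Y against 0.0804% to 0.123%. More X and less Y goes against the male source that the methods state for all libraries, so calls that use that group were also made without it. The labels call the libraries biological replicates.

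No RNA was measured here, so the cell type could be set only against chromosome compartments. All 6 B cell marker genes lay in the active A compartment in every library, but so did 5 of 6 T cell and 4 of 4 myeloid markers, and 0 of 3 neuronal markers did. The compartment of marker genes thus does not single out the labelled cell type.

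EBF1 is a zinc-knuckle transcription factor that, with E2A and PAX5, specifies the B lineage and keeps B cell genes such as Cd79a active in mature B cells. It can bind closed chromatin and recognises a palindromic motif. Plasma cells, the end stage of B cell activation, lose its expression, and BLIMP1 (Prdm1), XBP1 and the inhibitor ID2 belong to programmes that act against it or replace it.

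The Ebf1 start bin lies at the edge of a long stretch without other protein-coding genes. On the upstream side Rnf145, which encodes a ubiquitin ligase of the endoplasmic reticulum, ends 51.797 kb before the start of Ebf1. On the downstream side the next gene, Clint1, which encodes a clathrin-interacting adaptor, starts 843.96 kb beyond the end of Ebf1, and this interval is called the downstream desert here. The upstream flank holds 14 protein-coding gene starts and the downstream flank 19.

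Sequence matches near the gene are shown for a pair of motifs. Matches to the core consensus of CTCF, a zinc-finger protein that holds chromatin loops, and to the EBF motif were looked for on both strands of the genome sequence. The capitals mark the match and the lower-case letters are the 10 bases on each side, written 5′ to 3′ on the strand of the match. The CTCF matches are all 6 that lie between the Ublcp1 bin upstream and the Lsm11 bin downstream, so they flank the gene on both sides. The pair of EBF matches are those in the start bin.
CTCF, last gene bin, chr11:45008302-45008315, minus strand: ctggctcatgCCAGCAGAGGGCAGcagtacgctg
CTCF, Ublcp1 bin, chr11:44453586-44453599, minus strand: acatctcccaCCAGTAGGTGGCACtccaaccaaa
CTCF, desert, chr11:45173734-45173747, minus strand: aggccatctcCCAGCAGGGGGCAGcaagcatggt
CTCF, desert, chr11:45251340-45251353, plus strand: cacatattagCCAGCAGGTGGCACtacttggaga
CTCF, Lsm11 bin, chr11:45926992-45927005, minus strand: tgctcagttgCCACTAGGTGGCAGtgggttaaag
CTCF, Lsm11 bin, chr11:45945027-45945040, plus strand: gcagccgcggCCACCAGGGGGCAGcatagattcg
EBF, start bin, chr11:44612497-44612506: agctggcacgTCCCTGGGGAgtcctgtctg
EBF, start bin, chr11:44612982-44612991: tctgggacgaTCCCGGGGGAaacccgagag
The CTCF consensus had 0 matches in the start bin, 1 in the 9 gene bins, 8 in the upstream flank and 8 in the downstream flank. The Il12b bin, where the insulation score had a minimum, and the desert bin with the most contact of the start bin held 0. Over 47332 autosomal bins, 11.41% held at least 1 such match. The EBF motif, searched as TCCC and GGGA with any 2 bases between them, reads the same on either strand. It had 2 matches in the start bin, and 54.1% of all bins held at least 1. Neither motif was found in the 2 promoters that RefSeq (GRCm38.p6) gives for Ebf1, each taken as 300 bases around a start, where 0.3348% of 32851 promoters held the CTCF consensus and 0.9041% the EBF motif. A match is only a string of letters, and binding of neither factor was measured.

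The contacts of the Ebf1 start bin were strongly asymmetric in every group: they ran into the gene and the downstream desert and were scarce upstream. Contacts were expressed as observed over expected, the observed count over the mean count at the same distance on the autosomes of that library. A value of 1 is that mean and not the typical value. For the sums described below, the median of windows of the same shape over the autosomes lay between 0.820 and 0.983. Of the 40 upstream bins, 3 had a mean over the 8 libraries above 1, and the median was 0.299. Of the 8 other gene bins, 8 were above 1, with a median of 4.21. Of the 40 downstream bins, 32 were above 1, with a median of 2.62. Along the gene the mean went from 1.75 in the bin next to the start bin to 7.01 in the bin that holds the 3′ end of Ebf1.

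**Figure D1:**
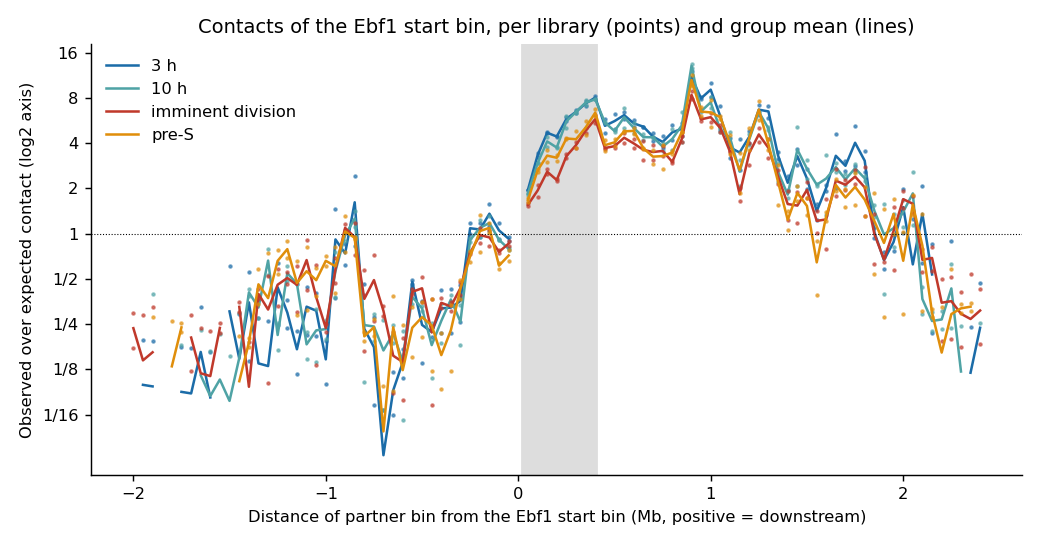
Observed over expected contact (log2 axis) of the Ebf1 start bin with each bin of the locus against the distance of that bin in Mb, with group means as lines, the 8 libraries as points and the gene body in grey. Values of 0 are not drawn. The curves lie mostly below 1 upstream, rise through the gene, and peak at 900.006 kb downstream, where the group mean is highest at 10 h (13.1) and lowest at imminent division (8.39).

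The highest contact of the start bin was with a bin in the desert that holds no protein-coding gene start, chr11:45500000-45549627, 900.006 kb downstream. Observed over expected values there were 9.94 and 12.1 in the 3 h libraries, 13.5 and 12.6 at 10 h, 7.86 and 8.92 in the imminent division libraries and 9.65 and 11.4 in the pre-S ones, on raw counts of 58 to 162 read pairs. Both values at imminent division were below those of every other library. The difference from 10 h was tested in the fit over all bin pairs, where it was a weaker contact (log2 change −0.54, SE 0.14, FDR 0.0146). In pre-S the log2 change against 10 h was −0.21 with an FDR of 0.626.

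The 4 other bins with the highest means were 45599625 and 45549624 (start positions) beside that desert bin and the last 2 bins of the gene. For chr11:45599625-45650318 the group means were 9.08, 7.47, 5.96 and 6.41 for 3 h, 10 h, imminent division and pre-S, and for chr11:45549624-45599628 they were 7.95, 6.52, 5.76 and 6.49. The last gene bin, chr11:44999979-45050090, had means of 8.04, 7.83, 5.78 and 6.39, and its neighbour, chr11:44949911-44999982, 7.36, 7.45, 4.84 and 5.08. None of these 4 contacts differed between imminent division and 10 h at an FDR of 5%.

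The other contacts of this desert bin were looked up after its rank was seen. Seen from it, the highest values in the locus beyond its close neighbours were with the start bin and with the bin just before it, chr11:44550044-44599997, where the group means were 12.4, 10.6, 8.56 and 9.48. In the next gene bin, chr11:44649759-44700405, they were 7.50, 5.36, 4.22 and 5.11. At imminent division against 10 h the desert bin had weaker contacts with the start bin, the Rnf145 bin (log2 change −0.87, FDR 0.0125), the Ublcp1 bin (−0.77, FDR 0.0320), chr11:44400934-44449949 between Il12b and Ublcp1 (−0.93, FDR 0.00193) and, within the gene, chr11:44700402-44750004 (−0.87, FDR 0.00232). Without the second imminent division library the contacts with the start bin (−0.60, FDR 0.0452), with the bin between Il12b and Ublcp1 (−1.07, FDR 0.0114) and with that gene bin (−0.92, FDR 0.0203) were still called, and those with the Rnf145 and Ublcp1 bins were not (FDR 0.0649 and 0.176). The contact with the bin just before the Ebf1 start had a log2 change of −0.26 with an FDR of 0.394.

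Neighbouring genes differed in how far the Ebf1 start bin reached them. Clint1, the first gene beyond the desert, had values of 6.15 and 7.22 at 3 h, 6.44 and 6.48 for 10 h, 4.08 and 5.06 in the imminent division libraries and 7.66 and 5.73 in the pre-S ones. Lsm11, which encodes a subunit of the U7 particle that processes histone transcripts, had 5.90 and 7.11, 5.12 and 4.90, 3.16 and 4.28, and 3.58 and 4.29 in the same order. For Clint1 and Lsm11 the imminent division libraries were thus the lowest or among the lowest, but the fits gave FDRs of 0.107 and 0.215 against 10 h. The bin of Adam19, a metalloprotease gene, and Gm12166 had 5.16 and 2.09 at 10 h against 1.17 and 1.90 at imminent division, and this contact was called weaker (log2 change −1.36, FDR 0.0197, and −1.76, FDR 0.0364, without the second imminent division library) on counts of 9 to 26 read pairs.

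Upstream genes stayed near or below the expected value although several are closer. Rnf145, the nearest gene, had values between 0.582 and 1.19 over the 8 libraries. Ublcp1, which encodes a phosphatase of the nuclear proteasome, had between 0.829 and 1.59. Il12b, the gene of the p40 subunit shared by interleukin-12 and interleukin-23, had between 0.652 and 1.17. None of the 3 differed at an FDR of 5% in any comparison. Farther upstream the bin of Ttc1 had between 0.621 and 1.32, and that of Adra1b, an adrenergic receptor gene, had 0 to 7 read pairs per library.

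The asymmetry was measured as a log2 ratio of observed over expected contact of the start bin, that with the downstream flank over that with the upstream flank. The gene is left out of this ratio, so the downstream flank lies farther from the start bin than the upstream flank, and the ratio is not one of counts. In the 3 h group it was 2.63 ± 0.01 (SD, n = 2), in the 10 h group 2.72 ± 0.11, in the imminent division group 2.42 ± 0.04 and in the pre-S group 2.64 ± 0.03. In size it lay between the 98.3 and 99.2 percentiles of 4834 windows of the same shape tiled over the autosomes. The boundary measure compares raw counts over 1 Mb on each side of the 100 kb region that holds the start, with the rest of the gene on the downstream side. It leaned the same way, with 535 upstream against 3004 downstream read pairs in the first 3 h library, for example. Its log2 ratio of upstream to downstream counts was −2.49 and −2.51 at 3 h, −2.68 and −2.63 for 10 h, −2.14 and −2.09 in the imminent division libraries and −2.57 and −2.53 in the pre-S ones. Only 50 to 97 of 23215 regions had a larger ratio in size.

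Sums within the gene, with the downstream flank and between the flanks placed Ebf1 high in the genome before bin coverage was taken into account. Sums with the upstream flank did not. Within the gene (36 bin pairs), observed over expected contact was 2.88 and 2.85 at 3 h, 2.81 and 2.77 for 10 h, 1.83 and 1.92 in the imminent division libraries and 2.19 and 2.18 in the pre-S ones. The 4 libraries at 33 h lay below the 4 earlier ones, and imminent division lay below pre-S. Among 4834 windows of 9 bins, 1 window was higher at 3 h and 1 at 10 h, 96 at imminent division and 5 in pre-S. The gene bins also had more interchromosomal contact than most, at 1.53 to 1.81 times the median bin in the 8 libraries. With each bin's coverage put into the expected count, within-gene values became 0.917, 1.03, 0.630 and 0.915 for 3 h, 10 h, imminent division and pre-S, at the 47.3, 56.9, 15.2 and 46.4 percentiles of the windows. The high rank of the gene thus depended on leaving coverage out, whereas imminent division had the lowest group mean either way.

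**Figure D2:**
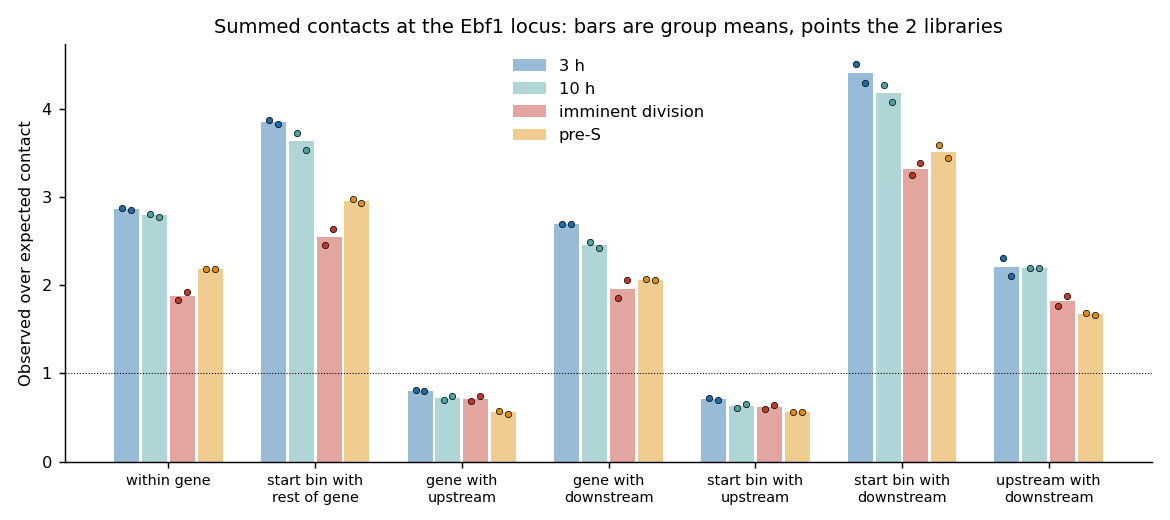
Observed over expected contact for 7 sums at the Ebf1 locus, with bars for group means and points for the 2 libraries of each group. The dotted line marks 1. Within the gene the bars stand at 2.86, 2.79, 1.88 and 2.19 for 3 h, 10 h, imminent division and pre-S, and contacts with the upstream flank stay below 1 in all groups.

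Before bin coverage was taken into account, other sums inside and downstream of the gene were also lower at 33 h than before. The start bin with the rest of the gene had group means of 3.85, 3.63, 2.55 and 2.95, and the start bin with the downstream flank 4.40, 4.18, 3.31 and 3.51, with imminent division lowest in both. The gene with the downstream flank had 2.70 ± 0.000262, 2.46 ± 0.0493, 1.95 ± 0.146 and 2.06 ± 0.00678 (SD, n = 2), and the upstream with the downstream flank, which reach across the gene, 2.21, 2.19, 1.82 and 1.68, with pre-S lowest. Contacts with the upstream flank were below 1 throughout: 0.805, 0.721, 0.713 and 0.559 for the gene, and 0.711, 0.634, 0.619 and 0.562 for the start bin. Their imminent division libraries overlapped with those at 10 h, while both pre-S libraries were lowest. An exact permutation test of the F statistic over all 105 ways to assign the libraries to 4 pairs gave adjusted p-values of 0.0167 to 0.0286 for the 7 sums (Benjamini-Hochberg over the 7), where the smallest p possible before adjustment is 0.00952. With bin coverage in the expected count these rose to 0.0833 to 0.400, so none of the 7 held there. Pre-S then had a higher mean than 3 h for the gene with the downstream flank (0.981 against 0.949). The same held for the start bin with the downstream flank (1.88 against 1.81) and the upstream with the downstream flank (1.01 against 0.977). Imminent division had the lowest mean in each of these sums (0.760, 1.45 and 0.946).

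With coverage in the expected count, the low upstream contact of the gene stood out instead. The gene with the upstream flank then had 0.310, 0.318, 0.299 and 0.289 in the 4 groups, at the 2.07, 2.13, 1.24 and 0.931 percentiles of windows. The start bin with the downstream flank had 1.81, 2.03, 1.45 and 1.88, at the 80.9, 87.3, 72.0 and 88.3 percentiles. Without coverage, the gene with the upstream flank lay at the 43.1, 35.7, 20.4 and 7.22 percentiles in the same order. The start bin with the upstream flank then lay at the 35.7, 27.0, 11.5 and 5.71 percentiles. Low upstream contact at 3 h and 10 h thus stood out among windows only with coverage in the expected count. Contact of the start bin was higher downstream than upstream with either expectation.

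The contacts within Ebf1 fell between 10 h and imminent division, a call that was kept under every alternative run for it. The window counts were tested with edgeR, with offsets from a loess fit on abundance over windows of the same shape. Few windows were as abundant as Ebf1 within the gene, with 1 of 4834 higher in observed over expected contact at 3 h and 1 at 10 h. The offsets of this sum thus rest mostly on windows with less contact, and its values are not relative to closely matched windows. Normalised within-gene counts were 8023 and 8217 at 3 h, 7922 and 8002 for 10 h, 6578 and 6516 in the imminent division libraries and 7723 and 7476 in the pre-S ones. The imminent division libraries lay below all others, with a log2 change of −0.28 against 10 h (SE 0.03, FDR 4.9e-06) and of −0.22 against pre-S (SE 0.03, FDR 0.000359). Of all windows, 19.3% were lower at imminent division than at 10 h, and 8.44% lower than in pre-S, at an FDR of 5%. Without the second imminent division library the log2 changes were −0.26 and −0.20, with FDRs of 7.5e-05 and 0.0040. With TMM factors, which do not follow abundance, the log2 change against 10 h was −0.61 (FDR 5.28e-08). Scaling on the cis total ended the call against pre-S (log2 change −0.04, FDR 0.57). Between 3 h and 10 h the log2 change was −0.03 (FDR 0.76). In pre-S against 10 h it was −0.07 (FDR 0.0689) with these offsets, and it passed the test with TMM factors (−0.38, FDR 2.6e-05), with the cis total (−0.32) and without either 3 h library (−0.08 and −0.08, FDR 0.031 and 0.035).

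Contacts of the gene with its upstream flank fell most in pre-S cells. Their normalised counts were 3965 and 3544 at 3 h, 3281 and 3470 for 10 h, 2629 and 3065 in the imminent division libraries and 2278 and 2180 in the pre-S ones. Both pre-S libraries lay below all others, with a log2 change of −0.60 against 10 h (SE 0.08, FDR 0.000525), beside 28.7% of windows called lower. Against 10 h, imminent division had −0.25 (FDR 0.0219) and lay 0.35 above pre-S (FDR 0.0193), beside 26.1% of windows called lower in the former and 8.07% called higher in the latter. These values depended on the scaling. With bin coverage in the offsets, pre-S against 10 h had a log2 change of −0.01 (FDR 0.91) and imminent division lay 0.18 below pre-S (−0.18, FDR 0.011). With the cis total as library size, imminent division lay 0.28 above 10 h (FDR 0.0032), and without the first imminent division library that change was −0.14 (FDR 0.17). That call was also lost without either 10 h library (FDR 0.0608 and 0.151). Without the second imminent division library the difference from pre-S was 0.24 (FDR 0.13), and it was not called without either 10 h library (FDR 0.0527 and 0.0537) or either pre-S library (FDR 0.114 and 0.145).

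Contacts of the gene with its downstream flank, which holds the desert, had smaller differences with these offsets. They had a log2 change of −0.12 between 3 h and 10 h (FDR 0.0567), of −0.07 between 10 h and imminent division (FDR 0.0439, with 25.9% of windows called lower) and of −0.03 in pre-S against 10 h (FDR 0.462). The last depended on the scaling and was called with TMM factors (−0.29, FDR 0.00172), by DESeq2 (−0.30, FDR 2.27e-07) and with the cis total as library size (−0.17, FDR 0.0123). The call at imminent division, which was −0.40 with TMM factors (FDR 0.000248) and by DESeq2 (FDR 7.88e-13), was lost with the cis total as library size (−0.03, FDR 0.52) and without the first imminent division library (−0.04, FDR 0.43), either 10 h library (FDR 0.17 and 0.068) or either pre-S library (FDR 0.096 and 0.081), and the change from 3 h to 10 h was called without the first 3 h library (−0.14, FDR 0.0074).

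Single bin pairs were tested next. Of the 756 pairs with an anchor in the gene and the other in the gene or its flanks, 388 were abundant enough to test, among 1458187 pairs over the autosomes. At imminent division against 10 h, 38 of these were weaker and 0 stronger at an FDR of 5%, while 1.43% of all pairs tested were weaker and 0.626% stronger. Within the gene 25 of 36 pairs were weaker (69.4%), against 11 of 259 with the downstream flank (4.25%) and 2 of 93 with the upstream flank (2.15%). These shares rest on unlike counts. In the first 3 h library the 36 pairs within the gene held 5489 read pairs, and all 360 pairs with the downstream flank held 6692. In the flanks alone 101 of 1895 pairs were weaker (5.33%) and 2 stronger. Over the gene and its flanks together, most of the called pairs were not called again without the second imminent division library. All 36 within-gene pairs had a negative log2 change, with a median of −0.43, beside a median of 0.00 over all pairs tested. Pairs with the downstream flank had a median of −0.37 and were negative in 236 of 259, so their values lay nearly as low although few were called, and those with the upstream flank had −0.16 and 59 of 93. The count of weaker gene pairs was 24 without the second imminent division library, 19 without the first, and 12 without either 10 h library.

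**Figure D3:**
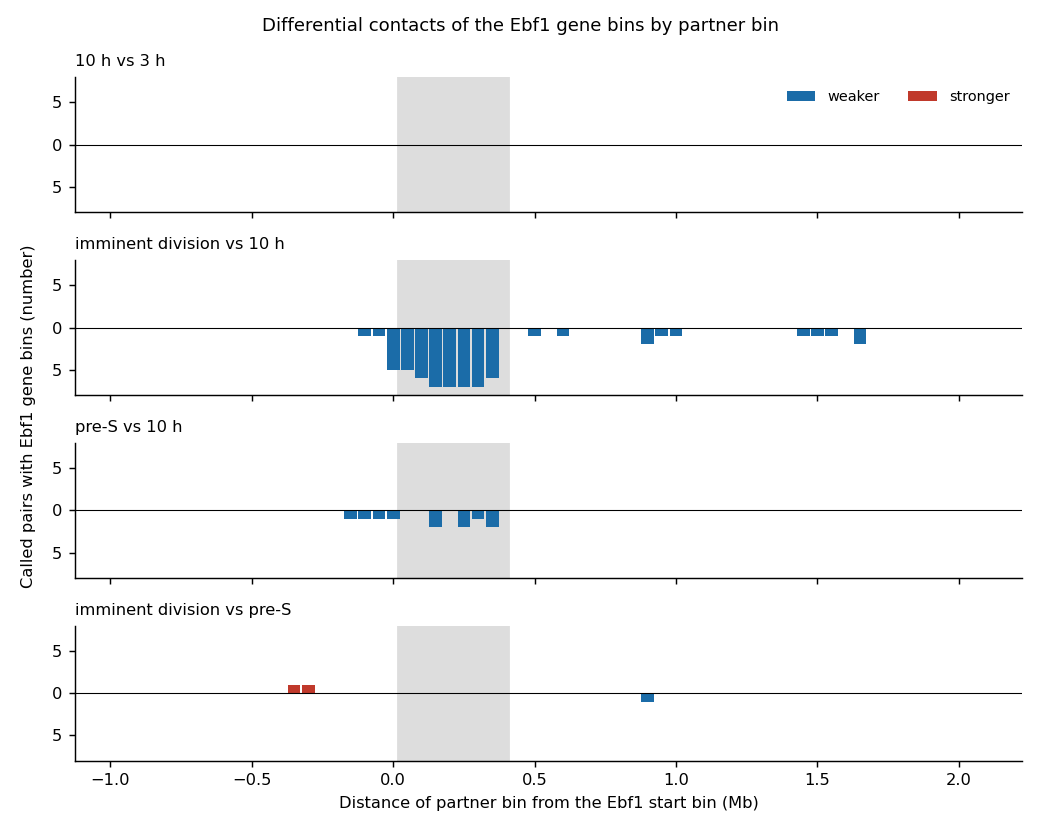
Number of called bin pairs of the Ebf1 gene bins by the distance of the partner bin from the start bin in Mb, with weaker pairs drawn downwards and stronger ones upwards, 1 panel per comparison and the gene body in grey. A pair within the gene is counted under both of its bins. Calls at imminent division against 10 h are most frequent inside the gene, at 25 of 36 pairs, while uncalled pairs with the downstream flank, whose median change was −0.37, are not drawn, and the panel of 10 h against 3 h is empty.

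The 3 weaker gene pairs with the smallest p at imminent division were inside the body of Ebf1, away from its start. For the pair of chr11:44750001-44799851 with chr11:44949911-44999982, normalised counts were 211 and 195 at 3 h, 217 and 209 for 10 h, 131 and 122 in the imminent division libraries and 154 and 108 in the pre-S ones. The log2 change was −0.75 at imminent division (FDR 2.85e-06) and −0.68 in pre-S (FDR 0.000815), against 10 h. For chr11:44750001-44799851 with chr11:44849996-44900028 it was −0.65 (FDR 4.65e-06), and for chr11:44649759-44700405 with chr11:44799848-44849999 −0.68 (FDR 4.6e-05). All 3 were also called without the second imminent division library (−0.68, −0.66 and −0.53, FDR 0.00247, 0.000672 and 0.0274). The start bin took part in 7 of the 38 weaker pairs, 5 of them within the gene.

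In pre-S against 10 h, 7 gene pairs were weaker and 0 stronger, with 0.243% of all pairs weaker and 0.355% stronger. Within the gene 4 of 36 were weaker (11.1%) and with the upstream flank 3 of 93 (3.23%). The upstream pairs joined the gene to the bins of Ublcp1 (log2 change −1.42, FDR 0.0116) and Rnf145 (−0.93, FDR 0.0426) and to the bin just before the start (−0.94, FDR 0.0164). This count depended on single libraries. It fell to 2 and 1 when the first or the second 10 h library was left out and to 1 and 0 for the pre-S libraries, and it was 12 when either 3 h library, and 11 when either imminent division library, was left out. Between the groups at 33 h, imminent division had 2 stronger pairs with the upstream flank, beside 0.13% of all pairs, and 1 weaker pair, which joined chr11:44700402-44750004 to the desert bin at 45500000 (log2 change −0.81, FDR 0.0253), beside 0.241%. The stronger pair of chr11:44249730-44299463 with chr11:44900025-44949914 rested on raw counts of 16 and 35 at imminent division against 1 and 0 in pre-S, and 0 pairs were called in either direction without the second imminent division library, without the second pre-S library, or by DESeq2. Between 3 h and 10 h, 0 gene pairs were called by edgeR and 0 by DESeq2, and 29 by edgeR and 3 by DESeq2 had an unadjusted p under 0.05, beside 0.00048% of all pairs called stronger and 6.86e-05% weaker.

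The start bin was among the bins of gene starts with most contact, and its summed contact fell slightly at imminent division. Interactivity was the sum of cis contacts of the bin that stand above a curve of count on distance, in 12104 bins with a gene start. The Ebf1 bin ranked 90 by its mean level. This rank leaves bin coverage out, and the start bin had 1.32 to 1.65 times the interchromosomal contact of the median bin in the 8 libraries. Normalised counts were 2935 and 3005 at 3 h, 2934 and 2844 for 10 h, 2703 and 2658 in the imminent division libraries and 2934 and 2830 in the pre-S ones. The imminent division libraries were the lowest, with a log2 change of −0.11 (SE 0.04, FDR 0.0150) against 10 h and −0.11 (SE 0.04, FDR 0.0445) against pre-S, beside 23.1% and 10.8% of gene-start bins called lower. Against 10 h the call was lost without the second imminent division library (−0.09, FDR 0.10) or the first 10 h library (−0.09, FDR 0.15), and the log2 change was −0.04 with TMM factors (FDR 0.369) and by DESeq2 (FDR 0.551) and 0.05 (FDR 0.21) over all cis pairs. Against pre-S the call was lost in 6 of the 8 fits that left out 1 library, with FDRs of 0.0598 to 0.314, and was kept only when either 3 h library was the one left out. Without the second imminent division library that change was −0.09 (FDR 0.192), and with TMM factors it was 0.03 (FDR 0.64). In pre-S against 10 h it was −0.00 (FDR 0.986).

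The insulation score was high over the gene and fell to local minima on both sides of it. The insulation score of a bin is the log2 mean count between the 10 bins on either side of it over the chromosome mean, so a low value marks a bin that few contacts cross. Within the locus it had local minima at the bins of C1qtnf2, Il12b and Lsm11 and at chr11:46749887-46799839, whose means lay at the 8.69, 7.09, 37.0 and 4.19 percentiles of autosomal bins, so the Lsm11 minimum was low only beside its surroundings. The Il12b bin had −1.01 and −0.91 at 3 h, −1.14 and −1.18 for 10 h, −0.78 and −0.76 in the imminent division libraries and −1.33 and −1.40 in the pre-S ones. Fewest contacts crossed it in pre-S and most at imminent division, with no overlap between the groups (imminent division against 10 h 0.39, FDR 0.000964, and against pre-S 0.60, FDR 0.000914, by limma). These differences were 0.38 (FDR 0.00444) and 0.59 (FDR 0.00962) without the second imminent division library. The Lsm11 bin had group means of −0.23, −0.41, −0.59 and −0.74 for 3 h, 10 h, imminent division and pre-S.

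**Figure D4:**
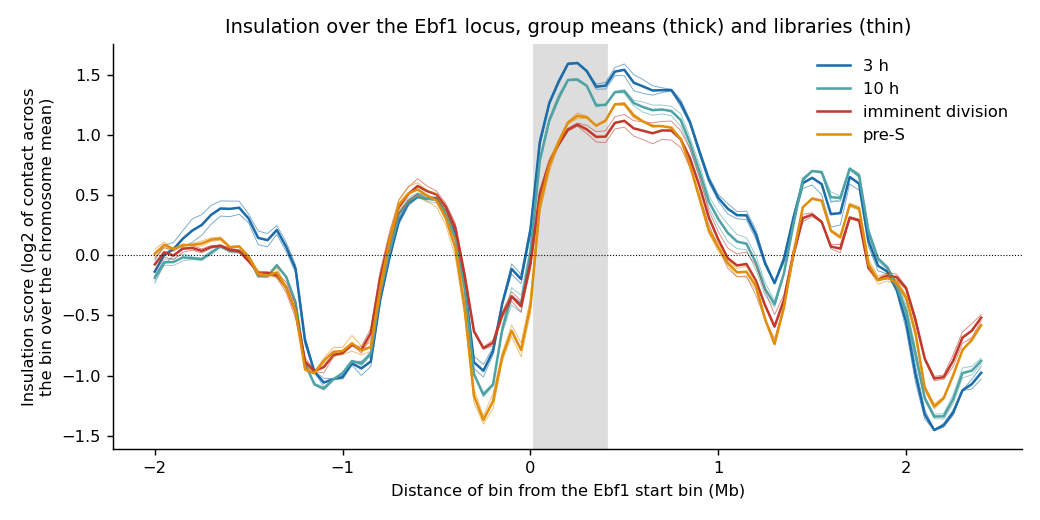
Insulation score (log2) of the 50 kb bins of the locus against distance from the Ebf1 start bin in Mb, with group means as thick lines, libraries as thin lines and the gene body in grey. The scores rise across the gene to a maximum at the bin that starts 250.002 kb from the start bin (1.60, 1.46, 1.08 and 1.16 for 3 h, 10 h, imminent division and pre-S) and fall to the Il12b minimum upstream.

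Inside the gene the score reached a local maximum at chr11:44849996-44900028. Its values were 1.59 and 1.60 at 3 h, 1.45 and 1.47 at 10 h, 1.071 and 1.098 in the imminent division libraries and 1.18 and 1.13 in the pre-S ones, and its mean lay at the 98.6 percentile of autosomal bins. At imminent division 8 of the 9 gene bins were lower than at 10 h, and in pre-S 9 of 9, beside 22.4% and 22.5% of all bins. The scores of neighbouring bins share most of their counts, so the bins counted here and below are not separate measurements. In the same comparisons the median difference of the gene bins was −0.35 and −0.35, while the median of all bins was 0.12 and 0.06. In the downstream flank 25 of 40 bins were lower and 9 higher at imminent division, and in the upstream flank 0 were lower and 4 higher, beside 44.1% of all bins called higher. Of these 46 calls in the gene and its flanks, 44 held without the second imminent division library, with all 8 of the gene bins among them. In pre-S against 10 h 24 downstream bins were lower and 3 higher, and 5 upstream bins were lower and 4 higher, beside 37% of all bins called higher. Between 3 h and 10 h, 11 upstream bins in a run from chr11:42849934-42900265 to chr11:43349773-43399957, which holds the starts of Gm9972 and Atp10b, were lower (−0.25 to −0.37), beside 0.816% of all bins.

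At the start bin itself the score fell in pre-S. It was 0.16 and 0.25 at 3 h, −0.03 and 0.08 for 10 h, −0.12 and −0.03 in the imminent division libraries and −0.36 and −0.48 in the pre-S ones. The pre-S libraries lay below all others, with a difference of −0.44 from 10 h (SE 0.06, FDR 0.000275). Imminent division differed from 10 h by −0.09 (FDR 0.185), a difference that was called with 5 bins on either side (−0.26, FDR 0.0059) and with bin coverage divided out (−0.21, FDR 0.0037), and from pre-S by 0.35 (FDR 0.00501, with 8.44% of bins higher). Without the second imminent division library that last difference was 0.31 (FDR 0.0452), without the second pre-S library 0.29 (FDR 0.076), with 5 bins on either side 0.13 (FDR 0.232), and with bin coverage divided out 0.07 (FDR 0.35).

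The boundary ratio at the Ebf1 start weakened at imminent division. The upstream over downstream ratio was tested for 45 regions of 100 kb in the locus. At imminent division against 10 h 10 were weaker and 0 stronger, beside 13.2% weaker and 4.57% stronger of all regions. In pre-S against 10 h 4 were weaker (2.87% of all regions), and between imminent division and pre-S 3 (4.83%). The region of the Ebf1 start was among the weaker ones at imminent division, with a log2 ratio of −2.11 against −2.65 at 10 h (FDR 9.08e-11) and −2.55 in pre-S (FDR 2.42e-05). Leaving out the second imminent division library gave −2.14 (FDR 1.91e-07 and 0.000956), and 9 of the 10 regions and 2 of the 3 kept their calls. Pre-S and 10 h were not called different there. Between 3 h and 10 h 1 region was weaker (0.138% of all), at chr11:43399954-43500182 with Pttg1, Slu7 and C1qtnf2.

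The whole gene lay in the A compartment in all 8 libraries. The compartment component is the leading axis of a principal component analysis of cis contact profiles in 100 kb bins, scaled to an SD of 1 and positive in A. Each of the 5 gene bins of 100 kb was positive in every library, and the gene means were 0.93 and 0.92 at 3 h, 0.88 and 0.91 for 10 h, 0.75 and 0.79 in the imminent division libraries and 0.77 and 0.81 in the pre-S ones. The 33 h libraries were the lower 4. Of the 5 gene bins, 3 were called lower at imminent division and 3 in pre-S against 10 h, beside 14.5% and 22.3% of all bins, with differences of −0.14, −0.21 and −0.20 at imminent division and −0.14, −0.19 and −0.11 in pre-S. The 3 calls at imminent division held without the second library of that group. The bin of the start was not among them, at −0.01 (FDR 0.881) and −0.05 (FDR 0.293), but in bins of 250 kb the bin with the start was called lower in both (−0.14, FDR 0.0035, and −0.12, FDR 0.0054).

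**Figure D5:**
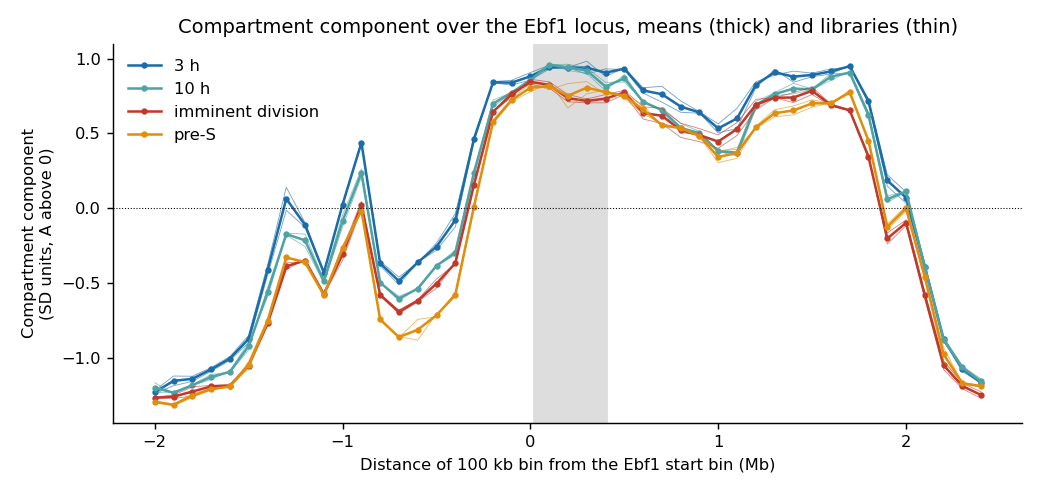
Compartment component (SD units, A above 0) of the 100 kb bins of the locus against distance from the Ebf1 start bin in Mb, with group means as thick lines, libraries as thin lines and the gene body in grey. The gene sits on a plateau above 0 in all groups, with bins below 0 farther upstream and at the far ends of both flanks.

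Around the gene more of the locus lay below 0 at 33 h. Of its 45 bins of 100 kb, 27 and 26 were in A at 3 h, 25 and 25 for 10 h, 22 and 23 in the imminent division libraries and 22 and 23 in the pre-S ones. Between 3 h and 10 h 13 bins were called, all 13 lower (2.32% of all bins). At imminent division 21 of 22 called bins were lower and 1 higher (9.08% of all bins were higher), and in pre-S all 29 were lower. Of the 22 calls at imminent division, 16 held without the second library of that group. Imminent division differed from pre-S in 12 bins outside the gene, of which 9 were higher (15.6% of all bins) and 3 lower (2.78%). The 5 that held without the second imminent division library were higher and ran from chr11:43800003 to chr11:44200075 (bin starts) in the upstream flank.

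Genes that act with, under or against EBF1 were compared by the interactivity of their own start bins. Of the 4 EBF family genes, Ebf1 was lower at imminent division than at 10 h, a call lost without the second imminent division library as given above, and Ebf3 was higher in pre-S (log2 change 0.18, FDR 0.0119, with 15.2% of bins called higher), while Ebf2 and Ebf4 passed the test in no comparison. Of 13 B lineage factors, 6 were lower and 2 higher at imminent division, beside 23.1% and 23.2% of all gene-start bins, with a median log2 change of −0.04 beside −0.00. Spib, an ETS factor, fell by 0.30 on the log2 scale (FDR 8.5e-08), Irf8 by 0.17 (FDR 0.0016) and Tcf3, which encodes E2A, by 0.13 (FDR 0.0090). Bcl6, which encodes a transcriptional repressor that acts in germinal centre B cells, rose by 0.13 (FDR 0.0031). These 4 were the ones, of 8, called again without the second imminent division library. Pre-S had 4 lower and 1 higher member against 10 h, beside 15.1% and 15.2% of all gene-start bins, the latter being Bcl11a (0.14, FDR 0.012). Between imminent division and pre-S, 0 of the 13 passed the test by edgeR, beside 9.9% of bins called higher and 10.8% lower.

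Of 10 genes known as EBF1 targets, 5 were lower and 1 higher at imminent division than at 10 h, beside 23.1% and 23.2% of all gene-start bins, with a median log2 change of −0.07. The 10 genes lie in 9 bins, and 5 of the 6 calls held without the second imminent division library. Blk, a Src kinase of the B cell receptor, had −0.37 (FDR 1.9e-10). Igll1 and Vpreb1, the surrogate light chain genes, lie in the same bin, so their −0.36 (FDR 1.3e-08) is a single measurement. Cr2, the complement receptor gene, was the member that rose (0.33, FDR 2.1e-06). Pre-S cells had 4 lower and 1 higher target against 10 h, beside 15.1% and 15.2% of all gene-start bins. Between imminent division and pre-S the 3 lower members, beside 10.8% of bins called lower, were Blk (−0.14, FDR 0.029) and the surrogate light chain pair (−0.21, FDR 0.0031), and all 3 held without that library.

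Of 7 antagonists and plasma cell factors, 3 were higher and 2 lower at imminent division than at 10 h, beside 23.2% and 23.1% of all gene-start bins, with a median log2 change of −0.02. Those that rose were Prdm1 (0.44, FDR 3.1e-12), Id2 (0.26, FDR 3.9e-07) and Xbp1 (0.15, FDR 0.0073). Those that fell were Zfp521 (−0.27, FDR 0.030) and Zfp423, which encode zinc-finger proteins that bind EBF1. In pre-S against 10 h, Prdm1 (0.24, FDR 0.00012) and Id2 (0.13, FDR 0.016) were higher too, beside 15.2% of bins, and imminent division exceeded pre-S (9.9% of bins called higher) at Prdm1 (0.20, FDR 0.00084), Xbp1 (0.18, FDR 0.0086) and Id2 (0.12, FDR 0.027), while Zfp521 was lower (−0.32, FDR 0.024). When the second imminent division library was left out, Xbp1 was called in neither comparison (FDR 0.119 and 0.119) and Id2 not against pre-S (FDR 0.105), and the other calls of this list held. Between 3 h and 10 h, 0 members of the 4 lists passed the test by edgeR, beside 0.694% of gene-start bins called higher and 0.107% lower.

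Start bins of the nearest neighbours passed no test at imminent division. At imminent division against 10 h, Il12b, Ublcp1, Rnf145 and Clint1 had log2 changes of −0.04, −0.06, −0.07 and 0.10. Of the 33 genes tested in the locus beside Ebf1, in 28 bins, 5 were higher and 4 lower, beside 23.2% and 23.1% of all gene-start bins. Those that rose were Gm9972 (0.32, FDR 0.000307), Nipal4 (0.25, FDR 0.00081), Atp10b (0.19, FDR 0.0300), and Thg1l and Sox30, which share a bin (0.17, FDR 0.00241). Those that fell were Adra1b (−0.31, FDR 2.0e-06), 4933415A04Rik (−0.19, FDR 0.00730), Timd4 (−0.17, FDR 0.00394) and Fabp6 (−0.16, FDR 0.00942). Without the second imminent division library Gm9972 and the 4 genes that fell were still called, and the other 4 were not. Across the genome the 5 genes whose interactivity followed that of Ebf1 most closely over the 8 libraries were Serpina1b (r = 0.987), Slc1a1 (r = 0.983), Olfr382 (r = 0.975), Slc25a2 and Taf7 (r = 0.970), of which the last pair share a bin. These were picked as the highest of all gene-start bins and share libraries and offsets with Ebf1, so the values are a description.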

How the data were processed

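In situ Hi-C read pairs of 8 libraries in 4 groups of 2 were analysed. The authors aligned the reads to mm10 per the labels and deposited raw counts of read pairs for pairs of bins of about 50 kb. The bins were rebuilt from MboI sites, and autosomes were used. Pairs with a summed count under 10, or under 4 times the background between chromosomes, were not tested. Counts were compared with edgeR (version 4.0.16) quasi-likelihood tests in a fit of all 4 groups, with loess offsets, and Benjamini-Hochberg adjustment over all features at an FDR of 5%. Windows shaped like the gene and its flanks were tiled over the autosomes. Boundary ratios were tested against a fold of 1.1, and insulation scores and compartment components with limma (version 3.58.1). DESeq2 (version 1.42.0) was an alternative, with R 4.3.3, Python 3.11.15, numpy 2.4.6 and scipy 1.17.1.

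Tested on simulated data for imminent division against 10 h, the bin pair test recovered 28.5% of 200 pairs changed by 1.5-fold among 50000, and the window test 99.5% among 4834. Of 61 and 216 calls there, 4 and 17 were of unchanged features. The simulated bin pairs were modelled on pairs with a summed count of at least 200. Recovery among the sparser pairs that were also tested was not simulated. Replicates differed by more than counting noise, with a chi-square per degree of freedom of 1.03 to 1.19. Read pairs carry no molecular identifiers, so a count is not a number of independent molecules.

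The gene, the gene lists and the motifs were chosen with earlier results of these data known. Named were the genes within 2 Mb, up to 4 called members per list and comparison with the smallest p, the 3 called gene pairs with the smallest p per direction, the 5 highest partner bins of the start bin, the 5 genes most like Ebf1, and minima of the insulation score over 5 bins on each side. Alternatives were other scalings, filters, bin sizes and tools, a replicate block and leaving out each library.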

Additional observations from a re-analysis of the deposited data

Results flagged for a closer look

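The 2 groups at 33 h differed at Ebf1 in 5 measures by a test of the difference itself. The boundary ratio at the start, weaker at imminent division than in pre-S by 0.44 on the log2 scale (FDR 2.42e-05), was called without the second imminent division library too (FDR 0.000956). Its other alternatives kept only the number of regions called in the locus, so the call at the start was not followed there. With flanks of 500 kb that number was 2 weaker and 1 stronger, beside 3 weaker with flanks of 1 Mb. No version with TMM factors, the cis total or bin coverage was run for the boundary ratio. Each of the 4 other calls was lost or turned under some alternative run for it, so the 5 measures did not face the same alternatives. Relative to pre-S, imminent division had a log2 difference of −0.22 in within-gene contacts, which was −0.04 (FDR 0.57) with the cis total as library size. In contacts of the gene with its upstream flank it had 0.35, which turned to −0.18 (FDR 0.011) with bin coverage in the offsets and was not called in 5 of the 8 fits that left out 1 library. The interactivity of the start bin had −0.11, which was 0.03 (FDR 0.64) with TMM factors and was not called in 6 of those 8 fits. The insulation score at the start had 0.35, which was 0.07 (FDR 0.35) with bin coverage divided out, 0.13 (FDR 0.232) with 5 bins on either side and 0.29 (FDR 0.076) without the second pre-S library. The pre-S cells came from mice with a reporter transgene and from another gate than the imminent division cells, so group, transgene and gate cannot be told apart.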

How the results depend on the processing

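Each bin pair had few counts and each group 2 libraries, so a difference that missed the threshold is not shown to be absent. Of 602 values that answer a comparison under alternatives, 479 kept their direction and side of the threshold or, for counts, stayed within 1.5 times. Of the others, 52 counts moved further, 49 values fell short of the threshold, 15 newly passed it and 7 reversed. The cause of the changes below was not tested.

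With TMM factors, pre-S against 10 h had −0.38 within the gene and −0.29 with the downstream flank, and the start bin with the rest of the gene −0.35. The gene with the upstream flank had −0.0786 at imminent division against 10 h. Interactivity had −0.0436 against 10 h and 0.0259 against pre-S. There were 20 weaker pairs in pre-S and 1 stronger at imminent division. With DESeq2 these log2 changes were −0.38, −0.30, −0.35, −0.0804, −0.0395 and 0.0269, and imminent division against pre-S had 0 weaker and 0 stronger pairs.

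With the cis total as library size, pre-S against 10 h had −0.32 within the gene, −0.17 with the downstream flank and −0.26 for the start bin with the rest of the gene. Imminent division against 10 h had 0.28 with the upstream flank, −0.0329 with the downstream flank and 0.23 for the start bin with the upstream flank. Against pre-S it had −0.0414 within the gene, 0.13 with the downstream flank and 0.00567 for the start bin with the rest of the gene. This scaling moved the median of all windows by up to 0.373.

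With bin coverage, the gene with the upstream flank had −0.00852 in pre-S against 10 h and −0.18 between imminent division and pre-S, and the gene with the downstream flank −0.11. The start bin with the upstream flank had 0.16 and −0.42, interactivity −0.12, and the flanks with each other 0.15 between 3 h and 10 h. Weaker pairs numbered 67 at imminent division, 2 in pre-S and 13 between the groups at 33 h, with 1 stronger. Insulation at the start had −0.21 against 10 h and 0.0677 against pre-S. The adjusted exact permutation p-values of the observed over expected sums were 0.0833 within the gene, with the downstream flank, for the start bin with the downstream flank and between flanks, 0.0933 for the start bin with the gene, 0.400 for the gene and 0.378 for the start bin with the upstream flank.

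With 5 bins on either side insulation had −0.26 and 0.13, and in bins of 250 kb the start had a compartment difference of −0.14 and −0.12 against 10 h. Over all cis pairs interactivity had 0.0464 against 10 h and 0.00749 against pre-S. In 100 kb bins there were 7 stronger pairs at imminent division, 14 weaker in pre-S, and 4 weaker and 6 stronger between them. Without the low-count filter 1 pair was stronger at imminent division and 1 between the groups at 33 h. With offsets per distance class there were 0 weaker and 1 stronger there. Without the fold threshold, boundary regions in the 4 comparisons (10 h against 3 h, imminent division and pre-S against 10 h, imminent division against pre-S) had 4, 13, 8 and 8 weaker and 5, 5, 9 and 2 stronger. With flanks of 500 kb there were 0 weaker at 10 h, 1 weaker in pre-S and 1 stronger at imminent division against pre-S.

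Replicate numbers did not pair the libraries (r between −0.261 and 0.0950 over 6 pairs of groups). With the replicate block the gene with the upstream flank had 0.35 (FDR 0.053) and interactivity −0.11 (FDR 0.067) between the groups at 33 h, the gene with the downstream flank −0.0748 (FDR 0.070) at imminent division, and 1 stronger pair remained in number. The block left the call of 52 other results as it was.

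Leaving out each library in turn gave ranges of −0.0872 to −0.0402 within the gene in pre-S, −0.37 to −0.14 and 0.24 to 0.45 for the gene with the upstream flank at imminent division against 10 h and pre-S, −0.14 to −0.10 and −0.0999 to −0.0358 for the gene with the downstream flank at 10 h and imminent division, −0.13 to −0.0894 and −0.13 to −0.0787 for interactivity, and −0.24 to −0.13 and 0.29 to 0.41 for insulation at 10 h and between the groups at 33 h. Weaker pairs ranged from 12 to 44 at imminent division, 0 to 12 in pre-S and 0 to 1 between them, with 0 to 2 stronger. Weaker boundaries ranged from 0 to 1 at 10 h and 1 to 5 in pre-S, and stronger ones from 0 to 1 at 10 h. The permutation p-values ranged from 0.0267 to 0.0667 for the gene and 0.0222 to 0.0667 for the start bin with the upstream flank, and 0.0167 to 0.0667 between flanks.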
